A study of Mus musculus with 4 samples.

Results

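The immunity-related GTPases of mouse are a family of interferon-inducible GTP-binding proteins. Here, 10 of their genes were followed across the cell types of cytokine-treated islets: *Irgm1*, *Irgm2*, *Igtp*, *Iigp1*, *Tgtp1*, *Tgtp2*, *Ifi47*, *Gm4951*, *F830016B08Rik* and *Gm4841*. They were chosen by gene symbol, and all 10 were found among the 31053 genes of the count matrices. Islets from adult male C57BL/6 mice (C57BL6/J in the methods) were pooled and split into 4 samples. They were untreated, or treated for 6 h with IL-1β, with IFN-γ or with IL-1β and IFN-γ together. The islets were treated intact and then dissociated for droplet-based single-cell sequencing, with 1 library per condition. No transgene, deletion or sort was involved, and all 4 samples came from the same pool of islets.

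These proteins act in cells that are infected by vacuole-dwelling microbes. The regulators, which include the products of *Irgm1*, *Irgm2* and *Igtp* (also called *Irgm3*), sit on the membranes of the cell and hold the other members inactive. The effectors, which include the products of *Iigp1* (Irga6), *Tgtp1* and *Tgtp2* (Irgb6) and *Ifi47* (Irgd), load onto the vacuole of the microbe and break it open, with help from the ATG8 conjugation machinery and from guanylate-binding proteins. *Gm4951*, *F830016B08Rik* and *Gm4841* are less studied relatives. Transcription of the family is switched on through GAS elements and, by interferon regulatory factors, through ISRE elements.

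The members lie in 3 clusters of the mouse genome (GENCODE M21, build GRCm38), and all 10 are annotated as protein-coding. On chromosome 11, *Irgm1* (chr11:48861968-48871683), *Tgtp1* (chr11:48985327-48994172), *Tgtp2* (chr11:49057194-49064206) and *Ifi47* (chr11:49076587-49096974) share 235 kb. *Igtp* (chr11:58199556-58207591) and *Irgm2* (chr11:58199618-58222782) lie further along the same chromosome and overlap on the same strand. On chromosome 18, *Gm4951* (chr18:60212080-60247820), *Gm4841* (chr18:60268305-60273272), *F830016B08Rik* (chr18:60293380-60303016) and *Iigp1* (chr18:60376027-60392634) share 181 kb.

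Close relatives can share reads. Windows of 100 bases were therefore compared between the transcripts of each member and those of all other genes. Of the windows of *Tgtp1*, 73.1% also occurred in another gene, and of those of *Tgtp2*, 76.8%. Nearly all of them were shared between these 2 genes and a few with *Gm12185*, so the split of counts between *Tgtp1* and *Tgtp2* is uncertain and reads that fit both may have been dropped. For each of the other 8 members, at most 5.16% of windows were shared, and in the last 500 bases, where this 3′ chemistry reads, at most 0.998%.

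Promoter sequences from RefSeq (GRCm38.p6) were at hand for the 6 members on chromosome 11. The 250 bases before each start site were searched on both strands for the GAS element TTCNNNGAA and the ISRE core, which is GAAA, any 2 bases and GAAA again, and no GAS match overlaps an ISRE match in the members' promoters. Of all 32851 promoters of that length in the table, 7.02% held the GAS letters, 2.98% the ISRE letters and 0.332% both. *Igtp*, *Irgm2*, *Tgtp1* and *Tgtp2* held both, and in each the GAS match came first with 2 bases between it and the ISRE match. That spaced pair, on either strand, was in 5 promoters of the whole table, 0.0152%: those of the 4 members and of *Gm12185*, another gene of the family. The spaced pair was looked for after the matches had been seen, so its share is a description. The flanks of the matches are also alike, *Igtp* with *Irgm2* and *Tgtp1* with *Tgtp2*, so the 4 members cannot be counted as separate occurrences. The sequences below run 5′ to 3′ on the strand of the gene, from 100 to 16 bases before the start, with the matches in capitals, and are shown because the same 2 elements recur at the same spacing.
Igtp, chr11:58199456-58199540: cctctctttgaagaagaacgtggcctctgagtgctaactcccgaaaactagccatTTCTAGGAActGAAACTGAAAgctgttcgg
Irgm2, chr11:58214877-58214961: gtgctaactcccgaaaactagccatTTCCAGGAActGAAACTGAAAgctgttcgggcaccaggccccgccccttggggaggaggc
Tgtp1, chr11:48992262-48992346: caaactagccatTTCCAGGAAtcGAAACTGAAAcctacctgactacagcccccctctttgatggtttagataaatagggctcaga
Tgtp2, chr11:49064228-49064312: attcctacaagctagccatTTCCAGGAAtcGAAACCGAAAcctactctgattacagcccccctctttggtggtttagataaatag

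*Irgm1* held 2 ISRE matches that overlap each other and no GAS match in its 250 bases. They are shown with their flank, from 44 to 15 bases before the start, a stretch that overlaps an annotated GENCODE exon.
Irgm1, chr11:48871435-48871464: ctagcctgtttcaaGAAATAGAAACCGAAA
*Ifi47* held neither set of letters in its 250 bases, which says nothing of elements elsewhere.
Ifi47, chr11:49076487-49076571: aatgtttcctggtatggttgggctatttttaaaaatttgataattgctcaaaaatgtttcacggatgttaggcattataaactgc

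After filtering, 7471 of 12571 barcodes were kept. They were 1521 untreated cells, 2018 from the IL-1β library, 2122 from the IFN-γ library and 1810 from the library with both cytokines. The kept cells had medians of 15454, 7462.5, 9615 and 11123.5 unique molecular identifiers (UMIs, each marking 1 captured transcript molecule), in the same order. Between any pair of libraries, at most 4 barcodes were shared. Endocrine types were set from the share of a cell's UMIs taken by its hormone, other types from detected markers. This gave 4964 β-cells (*Ins1*, *Ins2*), 892 α-cells (*Gcg*), 541 δ-cells (*Sst*), and small numbers of pancreatic polypeptide (PP), endothelial, macrophage, mesenchymal, ductal and acinar cells. Every named type had more of its own markers than of any other type's among its 10 leading genes. Of the β-cells, 140 lay within 2 times the hormone cut-off, of the α-cells 5 and of the δ-cells 23.

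With 1 library per condition there is no replicate error, and no test between conditions could be made. Levels are UMIs summed over the cells of a type per 1000000 UMIs of those cells (CPM). They carry exact Poisson 95% intervals, and ratios carry exact conditional binomial 95% intervals, all of which cover counting error only. Because each UMI stands for 1 transcript end, levels of different genes are compared without a correction for length.

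**Figure D1:**
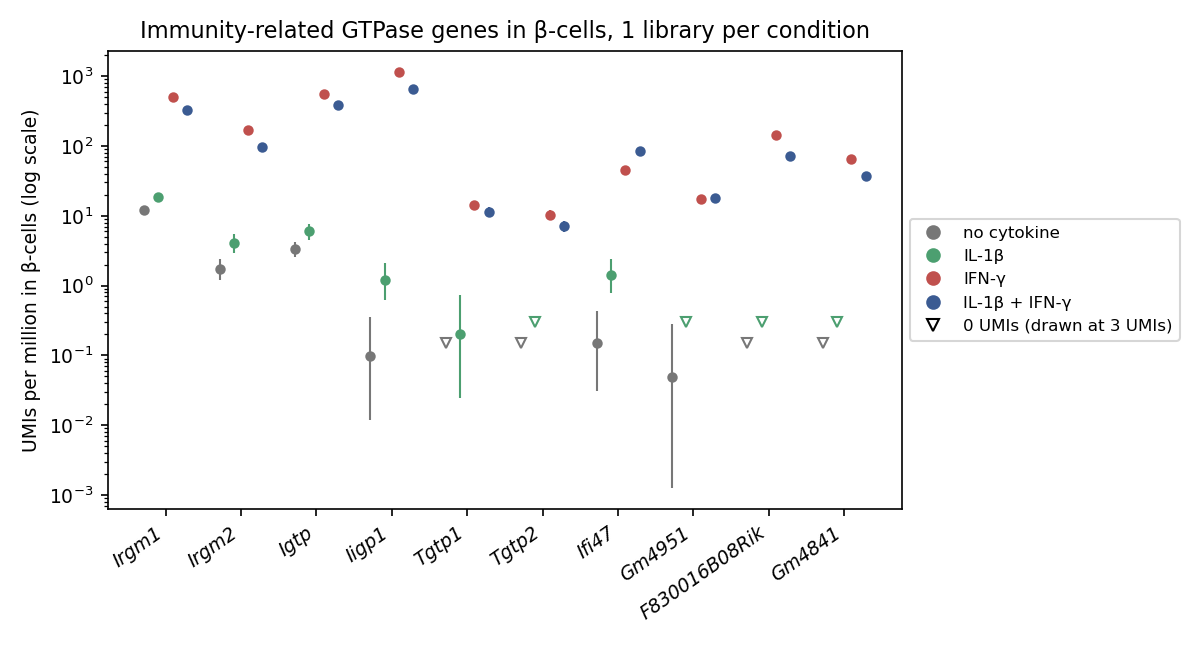
Level of each of the 10 genes in β-cells in CPM on a log axis, 1 point per library, with exact Poisson 95% intervals, and open triangles at 3 UMIs where none was counted. All 10 genes are higher in both libraries with IFN-γ than in the 2 without, from *Iigp1* at 1147 CPM down to *Tgtp2* at 10.2 CPM with IFN-γ alone.

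The family was nearly absent from β-cells without IFN-γ and abundant with it. Summed over the 10 genes, the untreated level was 17.4 CPM (15.7 to 19.4) and the IL-1β level 31.5 (28.1 to 35.2). IFN-γ alone gave 2673 CPM (2646 to 2700), and the combination gave 1691 (1670 to 1711). The ratio of IFN-γ to no cytokine was 153 (138 to 171). Gene by gene, ratios were read at 1.5 times among genes with at least 30 UMIs in the 2 libraries together, and 21% of the 11782 such genes in β-cells were higher with IFN-γ. All 10 members were higher, but only *Irgm1*, *Igtp* and *Irgm2* had 30 UMIs without cytokine. The other 7 passed the minimum through the IFN-γ library alone, so their direction was fixed by it and the count supports nothing.

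Among the regulators, *Irgm1* had the highest level without cytokine. Its β-cell levels were 12.1 CPM untreated, 18.6 after IL-1β, 500.1 after IFN-γ and 329 after the combination, and the IFN-γ level was 41.5 times (36.5 to 47.4) the untreated one. *Igtp* stood at 3.34, 5.98, 562 and 388 CPM in the same order, with an IFN-γ level 168 times (132 to 217) the untreated one. *Irgm2* stood at 1.74, 4.05, 167 and 97.0 CPM, for which that ratio was 95.7 (68.6 to 138). These 3 genes held 344 of the 350 UMIs of the family in untreated β-cells, so the resting transcripts were almost entirely those of regulators.

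The effectors started from almost nothing. *Iigp1* had 2 UMIs in 1201 untreated β-cells and 12 UMIs in 3 of 1168 β-cells with IL-1β. With IFN-γ it had 16502 UMIs and was the most abundant member, at 1147 CPM (1130 to 1165), and with both cytokines it stood at 648 CPM (635 to 661). The ratio of IFN-γ to no cytokine, 11515, has an interval of 3187 to 95091 because it rests on 2 untreated UMIs. *Ifi47* had levels of 0.149 CPM untreated, 1.42 after IL-1β, 45.0 after IFN-γ and 83.4 after the combination, and was the only member of the 10 whose interval lay wholly higher with both cytokines than with IFN-γ in β-cells. *Tgtp1* was listed at 0 UMIs without cytokine and at 2 with IL-1β, then at 14.5 CPM with IFN-γ and 11.4 with the combination. *Tgtp2* was at 0 UMIs in both libraries without IFN-γ, and at 10.2 and 7.09 CPM in the 2 with it. Set against a floor of 3 UMIs over the untreated β-cells (0.149 CPM), *Tgtp1* was at least 96.8-fold and *Tgtp2* at least 68.4-fold higher with IFN-γ.

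The 3 less studied genes of the chromosome 18 cluster likewise had next to no UMIs without IFN-γ. *F830016B08Rik* had no UMI in β-cells without cytokine or with IL-1β, 143 CPM (137 to 150) after IFN-γ alone and 72.0 (67.9 to 76.3) after the combination, at least 960-fold above the untreated floor with IFN-γ. *Gm4841* likewise had no UMI without IFN-γ, then 65.9 and 37.0 CPM. *Gm4951* had 1 UMI without cytokine, none with IL-1β, and 17.7 and 18.1 CPM in the 2 libraries with IFN-γ.

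With IL-1β alone the family sum in β-cells was 1.81 times (1.55 to 2.11) the untreated one, far from its level with IFN-γ. Only the 3 regulators passed the minimum of 30 UMIs, and their CPM ratios of IL-1β to no cytokine in β-cells were 1.55 (1.27 to 1.88) for *Irgm1*, 1.79 (1.24 to 2.58) for *Igtp* and 2.33 (1.44 to 3.77) for *Irgm2*. All 3 thus passed 1.5 times, but so did 35.9% of 11663 genes, and the median gene was at a ratio of 1.27. Hormone transcripts took 42.1% of all UMIs in untreated β-cells, 21.96% after IL-1β, 28.4% after IFN-γ and 33.5% after the combination. Relative to the median gene, *Irgm2* was at 1.83, *Igtp* at 1.41 and *Irgm1* at 1.22, and 1 of 3 remained past 1.5 times, against 19.1% of genes. A single β-cell with IL-1β held 38 of the 311 family UMIs, and the ratio of the sum without the top cell of each library was 1.61. In α-cells the summed level was lower with IL-1β than without cytokine, 21.6 against 55.6 CPM, but 1 untreated α-cell held 24 of the 52 UMIs there. Without the top cell of each library the α-cell ratio was 0.668 in place of 0.388, and in δ-cells the 2 libraries stood at 42.6 and 40.8 CPM.

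**Figure D2:**
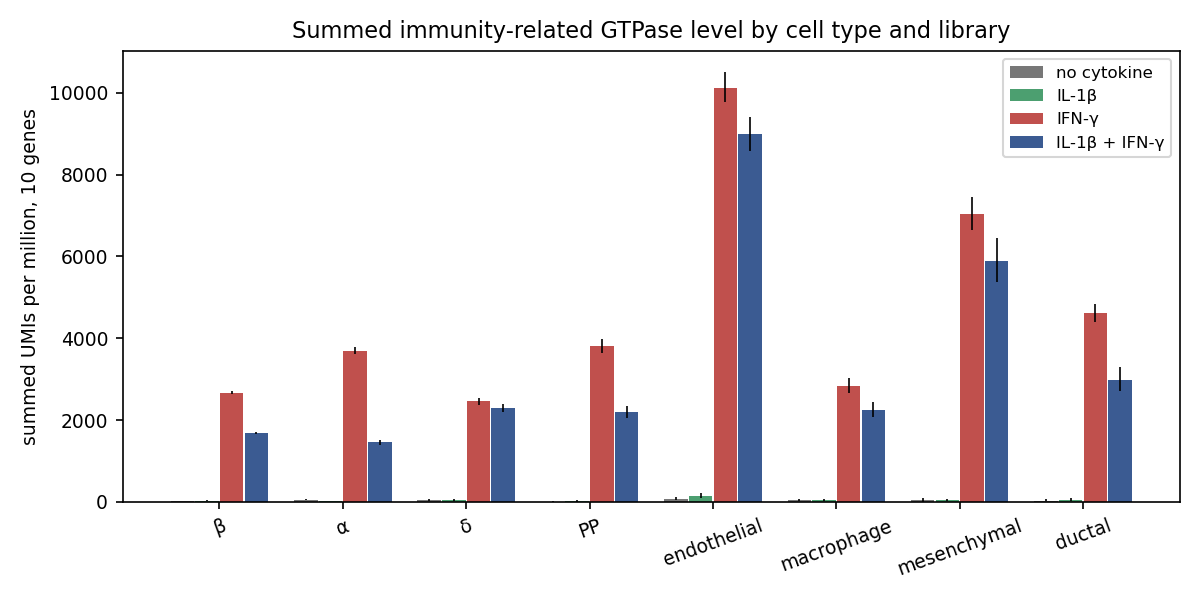
Summed level of the 10 genes in CPM by cell type and library, with exact Poisson 95% intervals, on an axis that starts at 0. In every type shown the 2 libraries with IFN-γ stand far above those without, and endothelial cells reach 10128 CPM with IFN-γ against 2673 CPM in β-cells.

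Every named cell type carried the family after IFN-γ. In the IFN-γ library the summed level was 10128 CPM in endothelial cells, 7039 in mesenchymal, 4613 in ductal, 3806 in PP, 3700 in α-, 2830 in macrophage, 2673 in β- and 2463 in δ-cells. The neighbours PP and α-cells had overlapping counting intervals, and so did macrophages and β-cells. Acinar cells, only 22 in this library, stood at 1302 CPM (1072 to 1566). Without cytokine, the highest of these 9 types was endothelial, at 73.8 CPM from only 15 UMIs. That rank is uncertain: α-cells stood at 55.6 CPM from 52 UMIs, and the endothelial to macrophage ratio was 1.69 (0.749 to 3.85). Since no type lacked the family, free RNA from broken cells could not be measured from a negative type, and its part in the lower levels was not tested.

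**Figure D3:**
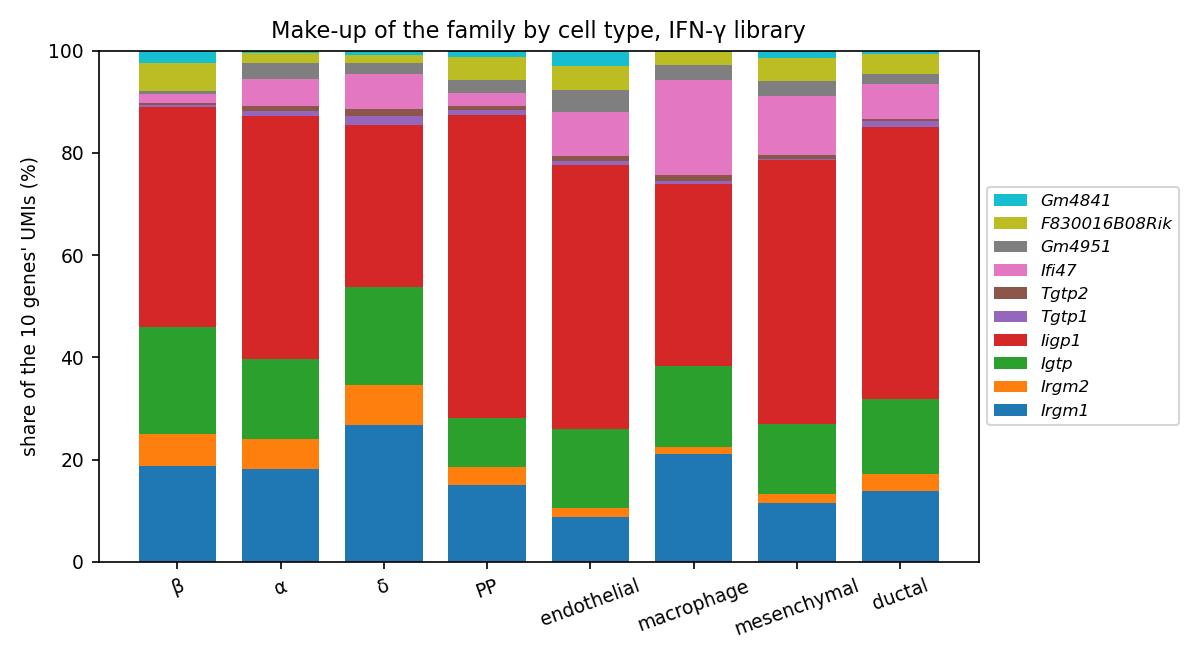
Share of the 10 genes' summed UMIs held by each gene, by cell type, in the IFN-γ library. *Iigp1* is the largest share in all 8 types shown, *Ifi47* takes a wider band in macrophages than in β-cells, and *F830016B08Rik* and *Gm4841* are wider in β-cells than in α- and δ-cells.

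The make-up of the family differed between types. *Igtp* stood at 562, 578 and 470 CPM in β-, α- and δ-cells with IFN-γ, a narrow range, and was higher in endothelial cells, at 1570. *Irgm1* likewise kept within 500.1 to 675 CPM in the 3 endocrine types. *Iigp1* ranged more widely, from 780 CPM in δ-cells and 1147 in β-cells to 1757 in α-, 2255 in PP and 5231 in endothelial cells.

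*Ifi47* was lowest in β-cells among the 8 types of the summed plot. With IFN-γ it stood at 45.0 CPM in β-cells, 98.4 in PP, 168 in δ-, 197 in α-, 315 in ductal, 525 in macrophage, 810 in mesenchymal and 863 in endothelial cells. The α-cell level was 4.38 times (3.88 to 4.94) the β-cell level, and the endothelial level 19.2 times (16.5 to 22.2). *Gm4951* had the same order at its ends, 17.7 CPM in β-cells, 51.6 in δ-, 113 in α- and 442 in endothelial cells, an α-cell level 6.38 times (5.36 to 7.60) that of β-cells.

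*F830016B08Rik* and *Gm4841*, of the same chromosome 18 cluster, were instead lower in α- and δ-cells than in β-cells of the IFN-γ library. *Iigp1* of that cluster was at 1.53 times (1.48 to 1.58) the β-cell level in α-cells of this library, but at 0.713 times (0.659 to 0.770) in the library with both cytokines, where the family sum was at 0.865 times (0.828 to 0.904). *F830016B08Rik* stood at 143 CPM in β-cells against 70.6 in α- and 42.0 in δ-cells, so that the α-cell level was 0.492 times (0.419 to 0.576) that of β-cells. *Gm4841* stood at 65.9, 19.5 and 19.2 CPM in the same 3 types, an α- to β-cell ratio of 0.296 (0.216 to 0.397). PP cells, at 172 CPM of *F830016B08Rik*, and endothelial cells, at 470, were not below β-cells. Macrophages were below them for *F830016B08Rik*, at 0.502 times (0.321 to 0.748), and for *Gm4841*, at 0.091 times (0.011 to 0.330) from 2 UMIs. Ductal cells were below β-cells for *Gm4841*, at 0.473 times (0.235 to 0.851), but not for *F830016B08Rik*, and mesenchymal cells for neither gene. Per UMI of *Gm4951* there were 8.13 UMIs of *F830016B08Rik* (7.13 to 9.29) in β-cells, 0.627 (0.515 to 0.763) in α-cells and 1.06 (0.828 to 1.37) in endothelial cells of the IFN-γ library.

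**Figure D4:**
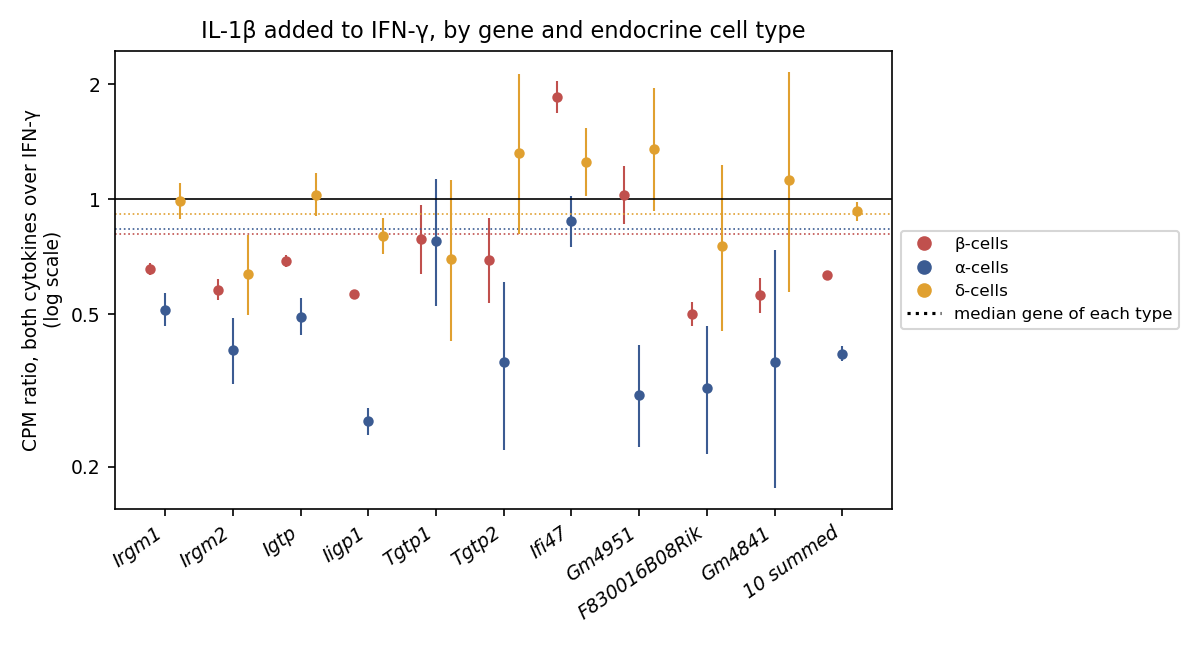
Ratio of CPM with both cytokines to CPM with IFN-γ alone on a log axis, by gene and for the 10 summed, in β-, α- and δ-cells, with exact conditional binomial 95% intervals and a dotted line at the median gene of each type. α-cells lie lowest for most genes, δ-cells highest for most, and *Ifi47* in β-cells stands above 1 at 1.85.

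With IL-1β added to IFN-γ, the summed family level was lower than with IFN-γ alone in α-, PP, β-, macrophage, endothelial and δ-cells, by amounts that differed, although relative to the median gene the δ-cell ratio turned to 1.02. The ratio of both cytokines to IFN-γ was 0.395 (0.377 to 0.414) in α-cells, 0.577 (0.533 to 0.625) in PP cells, 0.633 (0.623 to 0.643) in β-cells, 0.795 (0.716 to 0.881) in macrophages, 0.887 (0.837 to 0.941) in endothelial cells and 0.931 (0.879 to 0.986) in δ-cells. In the types with the fewest cells it was 0.648 (0.581 to 0.723) in ductal, 0.838 (0.752 to 0.933) in mesenchymal and 1.63 (1.22 to 2.17) in acinar cells, the last from 22 cells with IFN-γ and 12 with both. All 9 ratios rest on the same pair of libraries, and the differences between types were not tested. The median gene was at 0.937 in endothelial and 0.909 in mesenchymal cells, inside the interval of the sum in each. It was at 0.961 in macrophages, 0.912 in PP and 0.910 in ductal cells, above that interval. Endothelial cells had median depths of 4881 UMIs with IFN-γ and 10657.5 with both, and the part of depth was not tested. In PP cells 4 of 8 measured members were at least 1.5 times lower, against 26.2% of genes, and *Ifi47* was higher, against 15.4%. Relative to the median gene 3 were lower there, against 20.7%, without *Gm4951*. In endothelial cells 1 of 10 was lower, *Gm4841* at 0.426 (0.266 to 0.662), against 16.8%, and in macrophages 0 of 5, against 12.5%. In ductal cells 3 of 7 were lower, *Igtp* at 0.586 (0.429 to 0.789), *Iigp1* at 0.4996 (0.422 to 0.589) and *F830016B08Rik* at 0.282 (0.109 to 0.615), against 21.7% of genes, and the same 3 relative to the median gene, against 15.8%. In mesenchymal cells 0 of 7 were lower, against 23.7%. *Irgm2* and *Gm4951* in PP cells, *Gm4841* in endothelial cells and *F830016B08Rik* in ductal cells reached 30 UMIs only through the IFN-γ library. All comparisons of both cytokines with IFN-γ use the same IFN-γ library that the comparison with no cytokine used.

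α-cells had the lowest ratio of the sum among these 9 types. The regulators *Irgm1*, *Irgm2* and *Igtp* were lower there, and so was the effector *Iigp1*. All 10 members passed the minimum there, and 8 were at least 1.5 times lower with both cytokines, against 31.9% of 8811 genes. Of the 8, *Tgtp2* and *Gm4841* reached 30 UMIs only through the IFN-γ library, where they were higher, so their direction adds nothing. *Iigp1* stood at 1757 CPM (1704 to 1810) after IFN-γ alone and 462 (428 to 498) after the combination, a ratio of 0.263 (0.242 to 0.285). *Gm4951*, at 113 and 34.8 CPM, had a ratio of 0.309 (0.225 to 0.417).

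The other 6 of the 8 ranged from 0.322 (0.216 to 0.467) for *F830016B08Rik* to 0.515 (0.466 to 0.569) for *Irgm1*. *Ifi47* was at 197 and 173 CPM, a ratio of 0.877 (0.751 to 1.02), and *Tgtp1* at 0.777 (0.527 to 1.13), neither separable from 1 at this depth. The median gene of α-cells was itself at 0.835, and relative to it the same 8 members remained at least 1.5 times lower, against 20.1% of genes. The median depth of these α-cells was 8062 UMIs with IFN-γ and 8441 with both. Endothelial markers, the defining genes of the type with the highest family level, summed to 9.56 and 5.35 CPM in them, with 5 and 6 of 7 genes at 0. Macrophage markers summed to 25.8 and 48.1 CPM, most of it *C1qa*, with 6 and 7 of 10 at 0. β-cell markers summed to 4649 and 6420 CPM, ductal markers, led by *Spp1*, to 3696 and 5165, and acinar markers, led by *Ctrb1*, to 150 and 76.9. The part of these cells' RNA in the ratios was not tested.

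In β-cells the difference was smaller, and the median gene was lower as well. By CPM, 5 of 10 members were at least 1.5 times lower with both cytokines: *F830016B08Rik* at 0.502 (0.466 to 0.540), *Gm4841* at 0.561 (0.505 to 0.623), *Iigp1* at 0.565 (0.551 to 0.579), *Irgm2* at 0.581 (0.545 to 0.620) and *Irgm1* at 0.658 (0.634 to 0.682). The count was 4 with hormone genes left out of the totals, with cells weighted equally or with no upper limit on genes per cell. In the same comparison 32.1% of 11641 genes were that much lower and the median gene was at 0.811. Relative to the median gene, only *F830016B08Rik* stayed past 1.5 times, at 0.619, against 18.9% of genes, and the family sum was at 0.780. Macrophage markers summed to 48.0 CPM in these β-cells with IFN-γ and 148 with both, led by *C1qa*, with 1 of 10 at 0 in each, and endothelial markers to 5.07 and 7.15 CPM. Acinar markers, led by *Ctrb1*, summed to 90.6 and 360 CPM with 0 of 7 at 0 in each, PP markers, led by *Ppy*, to 1831 and 907 CPM, and α-cell markers to 362 and 185 CPM. The part of such RNA in the ratios was not tested.

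*Ifi47* in β-cells ran the other way. It stood at 45.0 CPM (41.6 to 48.6) after IFN-γ alone and 83.4 (79.0 to 88.1) after the combination, a ratio of 1.85 (1.68 to 2.04), while 10.2% of genes were at least 1.5 times higher. Relative to the median gene it was at 2.28, against 16.9% of genes. The share of β-cells with an *Ifi47* UMI was 30.6% of 1316 after IFN-γ alone and 50.2% of 1279 after the combination, or 13.6% and 24.8% after each cell was thinned to 4000 UMIs. The ratio was also above 1 in PP cells, 1.73 (1.19 to 2.56), and in δ-cells, 1.25 (1.02 to 1.54), and it was 1.10 (0.911 to 1.34) in endothelial cells.

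In δ-cells the sum was closer to its IFN-γ level than in α- and β-cells. *Igtp* stood at 470 CPM with IFN-γ and 484 with both, *Irgm1* at 661 and 654, and *Iigp1* at 780 and 624, a ratio of 0.801 (0.718 to 0.892). Of 10 members, 1 was at least 1.5 times lower, *Irgm2* at 0.638 (0.4999 to 0.808), against 27% of 7304 genes. Relative to the median gene, at 0.917, none was past 1.5 times in either direction, while 22.2% of genes were lower and 21.1% higher by that much. Of the δ-cells, 2 of 188 from the IFN-γ library and 14 of 121 from the library with both cytokines lay within 2 times the hormone cut-off, and the ratio of the sum was 0.932 when that cut-off was doubled.

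**Figure D5:**
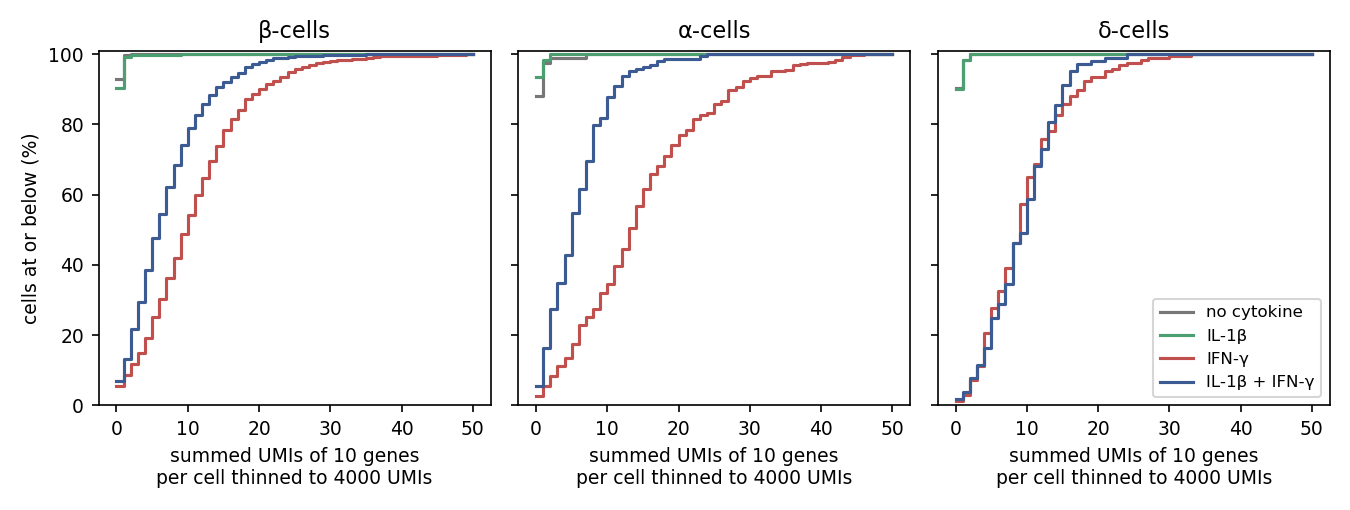
Cumulative share of β-, α- and δ-cells at or below each summed UMI count of the 10 genes, each cell thinned to 4000 UMIs, 1 line per library. In α-cells the line for both cytokines lies well to the left of that for IFN-γ, with medians of 5 and 13 UMIs, in β-cells less so, with 6 and 10, and in δ-cells the 2 nearly coincide.

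Nearly all β-, α- and δ-cells had a family UMI in the 2 libraries with IFN-γ, so that share is near its ceiling and the level per cell is given beside it. After thinning to 4000 UMIs, the median β-cell had 0 family UMIs when untreated or given IL-1β, 10 after IFN-γ and 6 after the combination. β-cells with none made up 92.9% (91.2 to 94.3, exact binomial 95% interval) of the untreated, 90.3% of the IL-1β, 5.49% of the IFN-γ and 6.82% of the combination library. In α-cells the medians were 13 with IFN-γ and 5 with both, with 2.79% and 5.49% of cells at 0, and in δ-cells 9 and 10, with 1.18% and 1.92% at 0. The thinning left out 217 of 4964 β-cells, 58 of 892 α-cells and 83 of 541 δ-cells that were shallower. Unthinned, 94.2% of β-cells had a family UMI with IFN-γ and 24.1% without cytokine, and the untreated share was 7.12% on thinning.

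Within β-cells the members were unevenly spread. *Igtp* and *Irgm1* UMIs were found in 89.9% and 88.6% of β-cells with IFN-γ, at 6.83 and 6.17 UMIs per positive cell. *F830016B08Rik* was found in 488 of 1316 β-cells, yet with 4.23 UMIs per positive cell and up to 42 in 1 cell. *Ifi47* had more nearly 1 UMI each, 1.61 per positive cell over 403 cells.

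In thinned β-cells the ratio of variance to mean, which is 1 for random counts of equal cells, was 3.56 for *F830016B08Rik*, 2.50 for *Gm4841*, 4.60 for *Iigp1*, 1.68 for *Igtp*, 1.53 for *Irgm1* and 1.35 for *Ifi47*. This ratio depends on the level of a gene, so it does not rank genes of unlike level by unevenness. Thinned UMIs with IFN-γ were 5897 for *Iigp1*, 2815 for *Igtp*, 704 for *F830016B08Rik* and 213 for *Ifi47*. *Gm4841* was seen in 23.5% (18.9 to 28.7) of the thinned β-cells with *F830016B08Rik* and in 10.98% (9.06 to 13.1) of those without. For *Gm4951* the thinned shares were 6.45% and 6.65%. Over all UMIs, however, *Gm4951* was higher in β-cells with *F830016B08Rik* than in those without, at 20.6 and 15.6 CPM with IFN-γ, a ratio of 1.32 (1.03 to 1.70), and at 26.5 and 14.4 CPM with both cytokines, a ratio of 1.84 (1.45 to 2.34). Other IFN-γ targets differed in how far they were higher in the β-cells with *F830016B08Rik* in the IFN-γ library. Ratios were 1.59 for *Iigp1*, 1.63 for *Ifi47*, 1.503 for *Gbp2* and 1.95 for the chemokine *Cxcl10*. They were smaller for *Igtp*, 1.15, *Irgm1*, 1.22, *Irf1*, 1.12, and *Irgm2*, 1.07 (0.990 to 1.17). The hormone gene *Ins1* was at 1.18, and the heat-shock gene *Hspa1a* at 0.231. No share of all genes is given for this split, so its ratios are a description. The β-cells with *F830016B08Rik* were deeper, with medians of 12026 and 10276.5 UMIs, and the parts of depth and of *Hspa1a* were not tested.

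β-cells were also divided by other genes. *Nos2* encodes the inducible nitric oxide synthase. With both cytokines, 905 β-cells had a *Nos2* UMI and 374 had none, and the family sum was 1815 CPM in the first and 1316 in the second, a ratio of 1.38 (1.34 to 1.42). Member ratios ran from 1.14 (1.01 to 1.29) for *Irgm2* to 3.16 (2.12 to 4.89) for *Gm4951*, with *Ifi47* at 1.95 (1.67 to 2.29). No share of all genes is given for this split, so the member ratios are a description. With IFN-γ alone only 8 β-cells had a *Nos2* UMI, and the ratio of the sum was 1.35 (1.20 to 1.51). With IL-1β alone, where 334 β-cells had a *Nos2* UMI, the ratio of the sum was 0.994 (0.775 to 1.27). There 1 β-cell held 38 of the 311 family UMIs, which the interval does not cover. The cells with *Nos2* were deeper, with medians of 12768 and 10451 UMIs with both cytokines.

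β-cells rich in *Hspa1a*, a heat-shock chaperone, carried less of the family in the 2 libraries with IFN-γ. With IFN-γ alone, 81 β-cells with at least 10 *Hspa1a* UMIs per 10000 had 966 CPM of the family against 2765 in the other 1235, a ratio of 0.349 (0.324 to 0.376). With both cytokines, 81 such cells had 888 against 1740 CPM, a ratio of 0.510 (0.475 to 0.547). The cells rich in *Hspa1a* were shallower, with medians of 9121 and 11052 UMIs with IFN-γ and 11800 and 12199.5 with both, and the part of depth was not tested. In the other 2 libraries the ratio of the sum was 1.08 (0.292 to 2.79) without cytokine and 0.631 (0.341 to 1.07) with IL-1β, neither separable from 1 at this depth. Leaving these cells out gave a ratio of both cytokines to IFN-γ of 0.629 in β-, 0.388 in α- and 0.880 in δ-cells.

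Genes that work with the family did not all have its pattern. Of 11 guanylate-binding protein genes, 10 were in the matrices and passed the minimum in β-cells, and 8 were at least 1.5 times higher with both cytokines than with IFN-γ, against 10.2% of all genes. *Gbp2* stood at 834 and 1831 CPM, a ratio of 2.20 (2.15 to 2.24), and *Gbp5* at 24.3 and 327 CPM, a ratio of 13.5 (12.1 to 15.1). *Gbp7* was at 0.888 (0.856 to 0.920), and *Gbp2b*, with few UMIs, at 0.164. In α-cells 7 of 9 measured genes of this list were at least 1.5 times higher and none lower, against 11.2% of all genes higher. *Gbp2* was at 2.28 (2.14 to 2.43) there. Of the 7, *Gbp5* had 28 UMIs in α-cells with IFN-γ and 239 with both cytokines. It passed the minimum only through the library where it was higher, so its direction adds nothing.

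IFN-γ signaling genes were mostly higher with both cytokines in β-cells. Of 14 such genes, all measured in β-cells, 9 were at least 1.5 times higher with both cytokines than with IFN-γ and none was lower, against 10.2% and 32.1% of all genes. *Irf1*, an interferon regulatory factor, was at 206 and 329 CPM in β-cells, a ratio of 1.60 (1.53 to 1.68), with 1.99 (1.78 to 2.21) in α- and 2.78 (2.46 to 3.15) in δ-cells. The feedback inhibitors *Socs1*, 2.70 (2.45 to 2.99), and *Ptpn2*, 3.27 (2.93 to 3.66), and the receptor chain *Ifngr2*, 9.57 (7.57 to 12.3), were higher with both cytokines in β-cells. In α-cells 8 of 14 were at least 1.5 times higher with both cytokines and 3 were lower, against 11.2% and 31.9% of all genes. *Irf8* was among the lower ones, at 0.528 (0.315 to 0.857). In δ-cells 11 were higher and 1 was lower, against 17.1% and 27%. In α- and δ-cells alike, *Ifngr2* and *Irf8* passed the minimum only through the library where each was higher, so their direction adds nothing.

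The 10 ATG8 conjugation genes, such as *Atg5* and *Gabarapl2*, were all measured in β-cells, and none was 1.5 times higher or lower with IFN-γ than without cytokine, or with both than with IFN-γ. Of all genes, 21% were higher and 2.53% lower in the first comparison, and 10.2% and 32.1% in the second. Of 7 further family-type genes, 6 were in the matrices and 5 passed the minimum in β-cells for both cytokines against IFN-γ, with 1 higher and 2 lower, which is close to the 32.1% of all genes that were lower. *Gm12185*, whose promoter holds the same spaced pair of elements, had 1 UMI without cytokine, 15.1 CPM with IFN-γ and 9.19 with both in β-cells, a ratio of 0.610 (0.490 to 0.756), and 0.251 (0.135 to 0.435) in α-cells. In α-cells it had 96 UMIs with IFN-γ and 15 with both. It passed the minimum there only through the library where it was higher, so its direction adds nothing. *9930111J21Rik2* was at 34.8 and 43.2 CPM in β-cells, a ratio of 1.24 (1.11 to 1.40), and at 2.45 (1.81 to 3.33) in δ-cells. *Gm12250* was not analysed here.

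Over the 30 pairs of cell type and library with at least 20 cells, the genes whose log2(CPM + 1) tracked the family sum most closely, among 11060 genes, included *Gbp7* with Pearson r = 0.942 and *Tap1*, a peptide transporter of antigen presentation, with 0.937. *Parp12*, *Ifit3*, *Irf1*, *Tap2* and *Ifit1* followed, between 0.920 and 0.890. The pairs share 4 libraries and mainly separate those with IFN-γ from those without, so r is a description. Of these 7, *Gbp7*, *Parp12* and *Ifit3* were lower in β-cells with both cytokines than with IFN-γ, the direction of the family sum, and *Tap1*, *Irf1*, *Tap2* and *Ifit1* were higher. The median gene was at 0.811 there. Relative to it *Gbp7*, *Parp12* and *Ifit3* were not lower, while the family sum was at 0.780.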

How the data were processed

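Counts were used as the authors deposited them: 4 UMI matrices, 1 per library, made with Cell Ranger on mm10 per the labels (the matrix header gives software version 3.0.0). The labels and the study's methods differ on the kit version. The cell filter kept barcodes with between 200 and 4000 genes and no more than 12% of UMIs from mitochondrial genes. Endocrine types needed at least 3% (*Ins1* and *Ins2*), 2% (*Gcg*), 1% (*Sst*) or 10% (*Ppy*) of a cell's UMIs, and cells past more than 1 cut-off were set aside as mixed. Other types needed 3 detected markers. The cut-offs were set at the valleys of the hormone shares after the matrices were opened. Doublets were not removed in the main values.

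UMIs were summed per type and library in Python 3.11.15 with scipy 1.17.1. Genes were compared at 1.5 times among those with at least 30 UMIs in both groups together. Cells were thinned to 4000 UMIs without replacement where stated. The ratio calculation was tested on simulated data. All 10 members are named, with the listed genes and the 8 genes most like the sum (200 or more UMIs). 1 gene that this rule names is not reported here. The members and lists were chosen with earlier results of these data known.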

Additional observations from a re-analysis of the deposited data

Results flagged for a closer look

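The point estimates for *Ifi47* lay on both sides of 1 when IL-1β was added to IFN-γ. Its CPM ratio of both cytokines to IFN-γ was 1.85 in β-cells, 1.73 in PP cells and 1.25 in δ-cells, but 0.877 in α-cells and 0.888 in macrophages. The intervals of the last 2 include 1, the α-cell value relative to the median gene was 1.05, and with 1 library per condition the difference was not tested.

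Barcodes left out by the cell filter also carried the family. Those over 12% mitochondrial UMIs had a summed level of 1939 CPM with IFN-γ and 1463 with both cytokines, against 12.3 CPM without cytokine. Mitochondrial UMIs lower these values by construction, and without them in the totals the levels were 3199 and 2565 CPM, against 3212 and 1938 in the kept cells. Those over 4000 genes had 3487 and 2351 CPM, against 21.5 without cytokine.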

How the results depend on the processing

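No paired analysis was possible because each condition has 1 library. With hormone genes left out of the totals, the β-cell sum was 124 times higher with IFN-γ than without cytokine, 1.34 times with IL-1β, and at 0.681 with both against IFN-γ. That scaling shifted the median gene of β-cells (log2) by -0.43 for IL-1β and -0.31 for IFN-γ against no cytokine, and by 0.11 for both against IFN-γ. Relative to the median gene, a setting chosen after seeing the data, these ratios were 124, 1.42 and 0.780, the α-cell ratio of both to IFN-γ was 0.474, the δ-cell ratio turned to 1.02, and 1 β-cell member was at least 1.5 times lower. Averaging cells with equal weight gave 0.660 for β-cells. Thinning gave 1.47 for IL-1β and a share of 7.12% of untreated β-cells with a member UMI. In δ-cells no upper gene limit gave 0.876 and mixed-hormone cells by leading hormone 0.870. At a limit of 2 times, 0 β-cell members were lower. Scrublet called 75 of 7471 cells, 42 of them among 279 mixed-hormone cells. Cell types are rebuilt, small types rest on few cells, and differences between mice were not measured. Library and condition cannot be told apart.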
